A study of Mus musculus with 50 samples.

Results

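The clustered histone genes are the 70 rows, of 33924 in each of a pair of count tables, whose symbol begins with Hist1h, Hist2h, Hist3h or Hist4h. They comprise 6 genes of the linker histone H1 and, among the core histones, 20 of H2A, 19 of H2B, 12 of H3 and 13 of H4. In the GRCm38 mouse assembly 56 of them lie on chromosome 13, 10 on chromosome 3 (from 96219865 to 96270132), 3 on chromosome 11 (from 58948920 to 58956830) and 1, Hist4h4, on chromosome 6. The members were chosen by symbol and not by any measured value.

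The RNA came from sorted mouse blood progenitors in 50 libraries of 16 groups. LSK cells carry no lineage markers and are positive for Sca1 and Kit, and GMP are granulocyte-monocyte progenitors. A first table of 30 libraries holds wild-type (WT) LSK and GMP at 4 weeks, and LSK and GMP of mice with a mutant Flt3 allele at 2, 4, 6 and 8 weeks, with 3 libraries in each group. The labels give neither the age of the mice nor the event from which the weeks were counted. A second table of 20 libraries holds Npm1 Flt3 LSK and GMP (4 libraries each) and Dnmt3a Flt3 LSK and GMP (3 each). It also holds Lin- HSPCs, stem and progenitor cells without lineage markers, from Npm1 Flt3 mice given vehicle or tamoxifen for 7 days (3 libraries each), where tamoxifen deletes the Flt3 oncogene. All groups of the second table therefore began with a mutant Flt3 allele, and none of them is WT. Mutations were switched on with Cre, Dre or Flp recombinase. The labels do not give the promoter that drove the recombinase, which recombinase acted on which allele, or whether some animals were already symptomatic when their cells were taken.

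Histones package DNA into nucleosomes, with H2A, H2B, H3 and H4 forming the core and H1 binding the linker DNA between cores. Most clustered histone genes are transcribed during DNA synthesis, and their main mRNAs end not in a poly(A) tail but in a short stem-loop that the stem-loop binding protein Slbp recognises. Some members also make polyadenylated transcripts that read past the stem-loop, and these are known from cells that have slowed or stopped dividing. A library kit that primes on poly(A) tails, as the Smart-Seq v4 3' DE kit does, reaches mainly such tailed transcripts. The labels name that kit and a Takara HT-Seq kit, and do not say which library was made with which.

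The stem-loop is shown here for 9 members that the results below turn on, because the members are grouped below by whether their gene model stops at it or runs past it. The letters are GRCm38, 5′ to 3′ on the gene's strand, and capitals mark the core, searched on the gene's strand as GG and CT with 2 free bases between them, 4 free bases, then AG and CC with 2 free bases between them.
Hist1h1c, chr13:23739507-23739532 (+): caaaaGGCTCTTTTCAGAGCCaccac
Hist1h1d, chr13:23555782-23555807 (+): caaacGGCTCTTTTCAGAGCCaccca
Hist1h2ac, chr13:23683472-23683497 (-): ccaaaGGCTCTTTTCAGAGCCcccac
Hist3h2a, chr11:58955167-58955192 (+): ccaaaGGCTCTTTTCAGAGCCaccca
Hist1h2bk, chr13:22036295-22036320 (+): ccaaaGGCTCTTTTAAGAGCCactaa
Hist1h3c, chr13:23745042-23745067 (-): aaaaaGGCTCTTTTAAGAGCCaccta
Hist1h4d, chr13:23581945-23581970 (+): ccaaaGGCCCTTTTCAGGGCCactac
Hist2h4, chr3:96262934-96262959 (-): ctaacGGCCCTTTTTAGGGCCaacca
Hist4h4, chr6:136803993-136804018 (-): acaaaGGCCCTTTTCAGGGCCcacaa
The motif was found in 45 of the 52 members whose GENCODE model reaches at least 30 bases past the stop codon, against 203 of 50944 other coding transcripts (0.398%). It began 21 to 58 bases after the stop codon. The core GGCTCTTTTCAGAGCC was present in 25 members, and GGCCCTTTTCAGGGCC in 7, all of them H4 genes. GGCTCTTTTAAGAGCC was present in 6 members (Hist1h1t, Hist1h2bb, Hist1h2bk, Hist1h3c, Hist1h3e and Hist1h3f).

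The printed sites lie in the 3' untranslated regions of protein-coding genes. On GRCm38 chromosome 13, Hist1h1c (ENSMUSG00000036181.2) spans 23738808 to 23740367 on the plus strand, Hist1h2ac (ENSMUSG00000069270.6) 23681467 to 23683948 on the minus strand, Hist1h2bc (ENSMUSG00000018102.5) 23684199 to 23692908 on the plus strand and Hist1h4d (ENSMUSG00000061482.7) 23581598 to 23582735 on the plus strand. Hist1h1b (ENSMUSG00000058773.2) spans 21779883 to 21780625 on the minus strand.

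The models differ in how far they run past this site. Of the 70 members, 22 end near the stem-loop, 23 run past it, 15 end at the stop codon, 7 reach past the stop codon without a match and 3 have no coding model. Hist1h1c has 840 bases after the stem-loop, Hist1h2ac 2010, Hist1h1d 4884, Hist1h4d 770 and Hist4h4 2445, while Hist1h2bk has 30 and Hist1h3c 74. These GENCODE models were not shown to be the ones on which the authors counted reads. A transcript that reads past the stem-loop is counted in full only where the model used for counting does too.

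Promoters of the family shared short motifs. In the 250 bases before the start site (RefSeq, GRCm38.p6, 61 of 70 members matched, both strands searched), CCAAT was found in 82.0% of members and in 33.8% of 32851 windows of all genes. All H1, H2A and H2B windows held CCAAT, as did 80.0% of H3 and 25.0% of H4 windows. TATAAA was found in 47.5% against 12.4%, and AAACACA, known as the H1 box, in 5 of 6 H1 windows (83.3%) against 6.25% of all windows. A pair of H1 promoters is printed because these genes had different values over the weeks, as given below. Capitals mark matches to the 3 motifs on either strand, and no match overlaps another in these windows.
Hist1h1c, chr13:23738557-23738806 (+): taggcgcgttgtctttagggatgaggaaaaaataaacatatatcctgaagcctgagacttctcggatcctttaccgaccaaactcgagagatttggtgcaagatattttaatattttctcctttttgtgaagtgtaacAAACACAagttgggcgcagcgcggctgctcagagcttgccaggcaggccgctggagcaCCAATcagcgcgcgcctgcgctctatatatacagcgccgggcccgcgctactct
Hist1h1b, chr13:21780626-21780875 (-): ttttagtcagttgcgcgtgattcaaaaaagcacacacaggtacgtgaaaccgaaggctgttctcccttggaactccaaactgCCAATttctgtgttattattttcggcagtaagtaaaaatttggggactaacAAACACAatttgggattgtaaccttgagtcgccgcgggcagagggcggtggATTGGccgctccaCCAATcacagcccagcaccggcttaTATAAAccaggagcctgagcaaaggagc
The H1 box began 112 bases before the start in Hist1h1c and 117 bases before it in Hist1h1b, and the nearest CCAAT, on either strand, began 54 and 53 bases before it. The Hist1h1b window also holds TATAAA, which the Hist1h1c window does not. These matches describe the letters of the windows and not sites shown to be bound.

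The second table was sequenced far more deeply than the first. Counts per library ran from 306571 to 8249135 in the first table, with a near-empty library, Flt3 8w GMP 2, left out because it held 1942 counts and none in a histone gene. They ran from 15053592 to 128057407 in the second. Summed LSK markers were 209 to 590 CPM (counts scaled by library total, multiplied by 1e+06) in LSK libraries and 18.8 to 66.2 in GMP libraries. GMP markers were at most 5340 CPM in LSK and at least 14637 in GMP. Both lists thus separated LSK from GMP libraries, which does not exclude other cells in them. Dnmt3a Flt3 LSK 1 and Dnmt3a Flt3 GMP 2 carry titles and sample codes that name different populations, and both were left out of the tests except in an alternative named as such. Flt3 transcripts measured 16.8 to 28.2 CPM in WT GMP and 106 to 173 CPM in Flt3 GMP, and 83.3 to 183 CPM after tamoxifen against 160 to 209 CPM after vehicle; the tables count both alleles together. The labels give sample codes and not whether libraries of a group came from separate litters or sorts, so p-values measure only the spread between these libraries. Genotype and sample-code series coincide in the comparisons between genotypes and cannot be told apart. The libraries of Flt3 mice at 2 weeks stood apart from all later weeks in markers of other cell types, with values given below beside the results they touch.

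Nearly all members could be seen at the lower depth of the WT and Flt3 table. With 3 counts over the table as the floor, 65 members were detected there and 67 in the second table. By class these were 5 and 6 of 6 for H1, 18 and 18 of 20 for H2A, 17 and 18 of 19 for H2B, 12 and 12 of 12 for H3, and 13 and 13 of 13 for H4. All 65 of the first table were also among those of the second.

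Those seen in the second table only were Hist1h1t, the testis linker histone, with 189 counts against 1, and Hist1h2bq, with 13 against 0. Hist1h2br, Hist2h2aa1 and Hist2h2ab were detected in neither table. Hist1h2bq and Hist1h2br share 96.6% and 88.5% of their 50-base windows with another member, so a read from either could have been assigned elsewhere or dropped. With 10 counts as the floor the numbers were 63 and 67, since Hist1h2aa, a testis H2A, had only 3 counts in the first table and Hist2h2aa2 had 5. Hist1h2ao ran the other way, with 314 counts in the first table and 12 in the far deeper second, and 93.5% of its windows occur in another member.

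Detection library by library depended on depth. A count was present in every library for 36 members of the first table and 42 of the second. Single libraries of the first table held counts for 43 to 64 members (median 58), and the lowest was Flt3 8w LSK 3, the library with 306571 counts. In the second table they held counts for 56 to 64 members (median 62). The CPM equal to 3 counts was 0.364 to 9.79 across libraries of the first table (median 2.39) and 0.0234 to 0.199 in the second. In the first table a member below about 2 CPM therefore cannot be read in a library of median or lower depth. The floor was 0.364 CPM in Flt3 2w GMP 3 and 9.79 CPM in Flt3 8w LSK 3. These floors cover counting error only.

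Testis-type members were chosen as a low reference. In Lin- HSPCs, Hist1h1t measured 0.664, 0.528 and 0.706 CPM after tamoxifen and 0.286, 0.164 and 0.587 CPM after vehicle. Hist1h2ba, the testis H2B, measured 0.332, 0.576 and 0.795 CPM against 0.286, 0.0773 and 0.196 CPM. Hist1h2aa measured 2.19, 1.73 and 1.28 CPM against 0.573, 0.0483 and 0.685 CPM. The groups overlapped for Hist1h1t alone among these. None of these genes was called between tamoxifen and vehicle in the edgeR tests below, with TMM scaling or by library size alone. By library size the log2 fold changes were 0.88 for Hist1h1t, 1.63 for Hist1h2ba and 2.01 for Hist1h2aa, where the median of all genes was 1.64. Hist1h2aa was no low reference after tamoxifen. The somatic members Hist1h2bk and Hist1h3c measured at most 0.528 and 0.399 CPM in the treated libraries.

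Among somatic members the levels spread over a wide range within each class. In the first table the H1 genes with the highest mean over groups were Hist1h1b at 96.1 CPM, Hist1h1c at 58.5 and Hist1h1e at 56.7. The H2A genes were led by Hist1h2ae (68.9 CPM), Hist3h2a (32.2) and Hist1h2ac (26.5), the H2B genes by Hist1h2bc (66.5), Hist1h2bj (51.4) and Hist2h2bb (42.6), the H3 genes by Hist2h3b (11.8), Hist1h3d (11.2) and Hist1h3a (7.72), and the H4 genes by Hist1h4d (105), Hist1h4c (40.5) and Hist1h4h (24.0). Per kilobase of exon the highest of these were Hist1h1b at 129 CPM per kb, Hist2h2bb at 112, Hist1h2bj at 111, Hist1h2ae at 97.9 and Hist1h4d at 92.3, while Hist1h1c stood at 37.5 and Hist2h3b at 24.2. The leading H3 gene was thus below the leading gene of every other class on both scales. Values per kilobase, here and below, assume reads along the whole model. The kit of each library and the models used for counting are not known.

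In the second table the order within classes was different. Hist1h1c led the H1 genes at 50.7 CPM, above Hist1h1b at 18.0 and Hist1h1e at 16.03. Hist1h2ac (13.0 CPM), Hist1h2ae (9.18) and Hist3h2a (7.39) led H2A, Hist1h2bc (37.8), Hist1h2bg (14.9) and Hist2h2be (11.0) led H2B, Hist1h3d (6.59), Hist1h3e (5.81) and Hist1h3f (1.60) led H3, and Hist1h4i (13.0), Hist1h4d (8.67) and Hist1h4c (6.02) led H4. Per kilobase, Hist1h2bc reached 32.7, Hist1h1c 32.5 and Hist1h1b 24.2 CPM per kb.

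**Figure D1:**
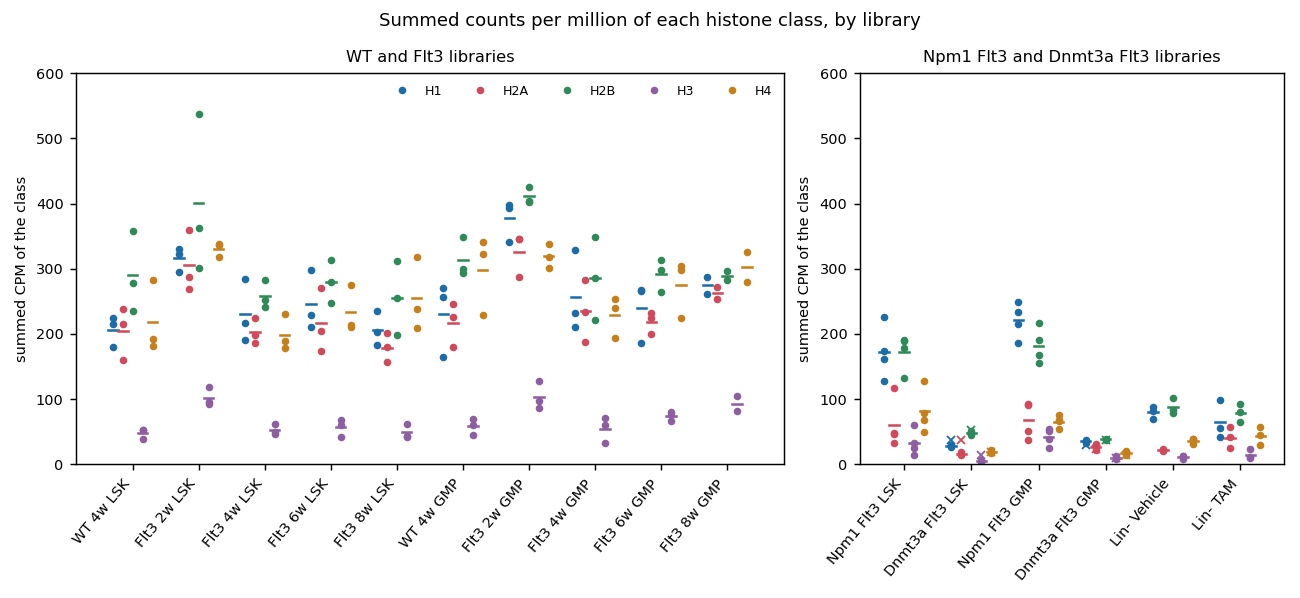
Summed CPM of the H1, H2A, H2B, H3 and H4 members (colours, linear axes in CPM) by group, without the near-empty library. Panels hold the WT and Flt3 libraries and the Npm1 Flt3 and Dnmt3a Flt3 libraries. Points are libraries, bars group means and crosses the 2 libraries whose title and code conflict. With all members together, Flt3 libraries at 2 weeks were highest (1337 to 1630 CPM) and Dnmt3a Flt3 libraries lowest (112 to 161 CPM). Within each class the 2-week libraries overlapped with others. H4, for example, was 301 to 338 CPM at 2 weeks and 341 CPM in WT 4w GMP 2.

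The summed level of all members set the groups in a clear order. It was 1550, 1429 and 1630 CPM in Flt3 2w GMP and 1602, 1337 and 1423 CPM in Flt3 2w LSK. From 4 to 8 weeks it was 917 to 1231 CPM in Flt3 GMP (mean 1116, n = 8) and 842 to 1225 CPM in Flt3 LSK (mean 973, n = 9), with WT GMP at 910, 1213 and 1227 CPM and WT LSK at 953, 794 and 1157 CPM. Both populations of Flt3 mice at 2 weeks thus lay above every other library, and WT and later Flt3 libraries overlapped.

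The second table was lower throughout. Npm1 Flt3 GMP measured 532, 546, 636 and 601 CPM and Npm1 Flt3 LSK 597, 380, 560 and 538 CPM. Dnmt3a Flt3 GMP measured 115 and 139 CPM and Dnmt3a Flt3 LSK 118 and 117 CPM, with 112 and 161 CPM in the libraries whose labels conflict. Lin- HSPCs measured 241, 303 and 184 CPM after tamoxifen and 264, 225 and 219 CPM after vehicle. No group of the second table reached the lowest library of the first.

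The classes did not keep the same proportions. The median share of H2B among histone CPM was 26.8% in the first table and 34.1% in the second, and that of H1 was 22.6% and 32.1%. H2A made up 20.6% and 13.7%, H4 23.0% and 13.8%, and H3 5.74% and 6.13%. No test was made across the tables, because genotype, sample series and possibly kit differ with the table and cannot be told apart.

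The ratio of the tables was also read by where the gene model ends, as a description. Among 59 members at 1 CPM or more in the first table, 58 had a higher mean in the first table than in the second (98.3%), with a median ratio of 6.02. Over all 12058 rows at that level the median ratio was 0.769, and 39.0% were above 1. The median ratio was 11.9 for the 12 members whose model ends at the stop codon (5.34 to 52.9), 6.38 for the 19 ending near the stem-loop (4.11 to 860) and 3.01 for the 21 running past it (0.965 to 12.1). These ranges overlap, and Hist1h4d, whose model runs past the stem-loop, had a ratio of 12.1, above the median of the stop-codon group. The highest ratio was that of Hist1h2ao, the near-identical copy named above.

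Members running past the stem-loop supplied a median of 47.4% of histone CPM in the first table (43.1 to 56.4%) and 58.4% in the second (47.5 to 75.3%). The corresponding medians for models ending at the stop codon were 18.6% and 9.75%. If reads were counted on these models, those that end at the stop codon leave the last bases of the mRNA uncounted. Library kit and model end were not tested apart.

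**Figure D2:**
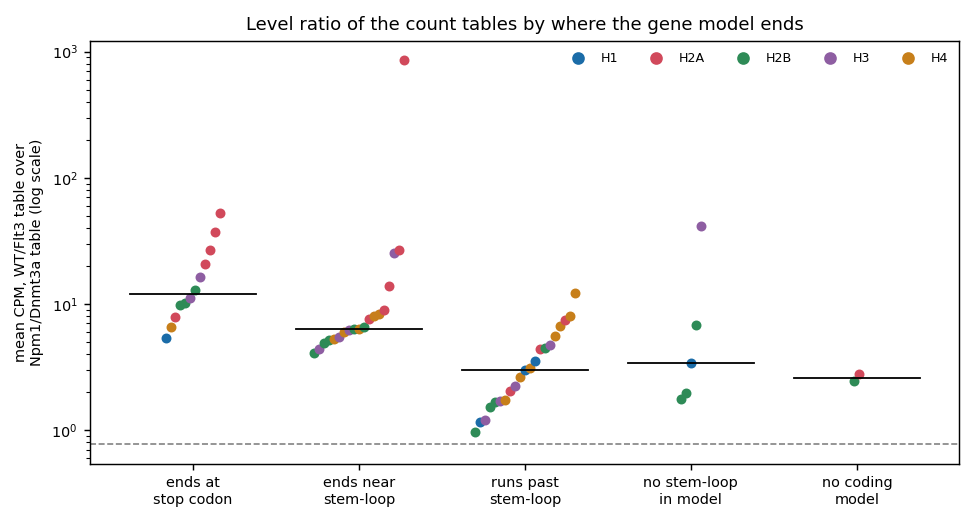
Ratio of mean CPM, first table over second, for each member at 1 CPM or more in the first table (log axis), grouped by where its gene model ends, with bars at the group medians. Members lie above the dashed line at 0.769, the median of all rows, and those that run past the stem-loop have the lowest group median (3.01) of the 3 groups with 12 or more members.

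In WT mice, LSK cells had lower values than GMP for most members with TMM scaling. The size of the gap depended on the scaling. Mean summed CPM of all members was 968 in LSK and 1117 in GMP, with overlapping libraries, and 865 and 1261 with TMM scaling. No fit by library size alone was made for this comparison. Of 46 members tested, 4 were lower in LSK and 0 higher, where 13.6% of all genes tested were called lower and 15.4% higher (29.0% in all). The median log2 fold change of LSK over GMP was -0.61 for the members, 39 of 46 being below 0, and 0.12 for all genes. The groups held 3 libraries each, and members not tested here or below did not pass the filter on low counts.

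The called members were an H2A, an H2B and a pair of H4 genes. Hist1h2bj, an H2B gene, measured 43.2, 29.7 and 46.9 CPM in LSK and 53.2, 67.7 and 56.3 CPM in GMP, a log2 fold change of -0.87 ± 0.28 (SE, edgeR adjusted p = 0.017). All WT GMP libraries lay above all WT LSK libraries for this gene. Hist1h4n measured 11.9, 2.47 and 5.38 CPM in LSK and 11.8, 18.9 and 22.1 CPM in GMP (-1.60 ± 0.44, edgeR adjusted p = 0.00457). Its groups overlapped through the first library of each.

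Hist1h4m (-1.28 ± 0.40, edgeR adjusted p = 0.0126) and Hist1h2ae (-0.74 ± 0.27, edgeR adjusted p = 0.0341) also overlapped between the groups. Leaving out WT LSK 2 or WT GMP 2 left 2 members called. At an unadjusted p under 0.05 there were 9. Among genes that process histone mRNA, 2 of 13 tested were higher in LSK and 0 lower: Npat, which activates histone gene transcription (1.57 in log2), and Cpsf2, a cleavage factor subunit (0.59). DNA replication genes were lower in LSK in 8 of 22.

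Flt3 mice showed the same sign for nearly every member when the 4 time points were averaged. Of 46 members, 45 had a log2 fold change of LSK over GMP below 0, with a median of -0.32 against 0.01 for all genes. Among them 5 were called lower and 0 higher, against 8.95% and 8.65% of all genes. Hist1h2ac, an H2A gene, had the lowest edgeR adjusted p, at 0.000839 (-0.83 ± 0.19, mean 18.3 CPM in LSK and 34.8 in GMP). The others were the linker Hist1h1c (-0.43 ± 0.14), the H2A gene Hist1h2ai (-0.62 ± 0.22), Hist1h3i (-0.98 ± 0.34) and Hist1h4c (-0.44 ± 0.14), with edgeR adjusted p-values from 0.0196 to 0.0387. Their ranges overlapped between the 12 LSK and 11 GMP libraries, and without the 2-week libraries 0 were called. On those fewer libraries the log2 fold changes were -1.02 for Hist1h3i, -0.68 for Hist1h2ac, -0.67 for Hist1h2ai, -0.35 for Hist1h4c and -0.22 for Hist1h1c. Dropping any of 7 single libraries (Flt3 2w LSK 3, 2w GMP 3, 4w GMP 3, 6w GMP 1, 6w LSK 3, 8w GMP 1 or 8w LSK 2) left 2 or 3 members called. Of 23 such fits, Hist1h3i lost its call in 12, Hist1h2ai in 11, Hist1h1c in 4, Hist1h4c in 1 and Hist1h2ac in 0.

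In Npm1 Flt3 mice only Hist1h1c of 60 members tested was lower in LSK, where 2.27% of all genes were lower and 4.62% were called in either direction. It measured 78.8, 66.0, 114 and 49.1 CPM in LSK and 105, 188, 163 and 104 CPM in GMP, a log2 fold change of -1.02 ± 0.26 (edgeR adjusted p = 0.0376). LSK 3 lay within the GMP range, and the others lay below it. The call was lost without any of Npm1 Flt3 LSK 1, 2 or 4 or GMP 2 or 3, with animal as a block, with Npm1 Flt3 libraries alone, and with the conflicting Dnmt3a Flt3 libraries kept. The log2 fold change stayed below 0 in all of these fits.

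Few members differed between Flt3 and WT libraries. Averaged over the 4 time points, 1 of 44 members was higher in Flt3 GMP and 0 lower, where 11.7% of all genes were higher and 13.3% lower. In LSK 0 of 41 were higher and 1 lower, where 6.89% and 8.07% of all genes were. The member medians were -0.04 in GMP and 0.25 in LSK, on the log2 scale.

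The member higher in Flt3 GMP was Hist3h2a, an H2A gene on chromosome 11. It measured 21.7, 16.9 and 18.1 CPM in WT GMP and 26.2 to 41.0 CPM in 11 Flt3 GMP libraries, without overlap (0.70 ± 0.25, edgeR adjusted p = 0.034). Its call was lost without any of Flt3 4w GMP 3, Flt3 8w GMP 3, WT GMP 2 or WT GMP 3, and 0 members were called without the 2-week libraries. The member lower in Flt3 LSK was Hist1h2ac, at 29.1, 28.4 and 42.6 CPM in WT LSK and 3.26 to 42.3 CPM in 12 Flt3 LSK libraries (-0.87 ± 0.26, edgeR adjusted p = 0.0213). Its groups overlapped, and without WT LSK 3 the call was lost. Leaving out Flt3 8w LSK 3 or WT LSK 1 added 1 member called higher, and without the 2-week libraries 2 were lower.

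At 4 weeks, the time with both genotypes, 2 members were lower in each population and 0 higher. In GMP, 8.30% of all genes were lower and 6.54% higher. Hist1h4h, an H4 gene, measured 10.5, 12.0 and 3.15 CPM against 23.6, 26.9 and 26.2 CPM in WT (-1.84 ± 0.42, edgeR adjusted p = 0.0024). Hist1h2bm, an H2B gene, measured 15.7, 22.9 and 9.46 CPM against 27.6, 24.4 and 37.6 CPM (-1.11 ± 0.36, edgeR adjusted p = 0.0324). Neither pair of groups overlapped. Hist1h2bm lost its call without Flt3 4w GMP 1 or 3 or WT GMP 1 or 3.

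In LSK at 4 weeks 5.60% of all genes were lower and 4.54% higher. Hist2h2be, an H2B gene on chromosome 3, measured 11.4, 13.1 and 11.6 CPM against 25.6, 24.7 and 32.3 CPM in WT (-1.19 ± 0.35, edgeR adjusted p = 0.0284), and Hist2h2bb measured 31.4, 29.95 and 27.7 CPM against 48.1, 44.5 and 56.5 CPM (-0.73 ± 0.23, edgeR adjusted p = 0.0454). All Flt3 libraries lay below all WT libraries for both. Either call is close to the threshold: leaving out any 1 of the 6 libraries left 0 or 1 member called.

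The difference between the Flt3 effect in LSK and that in GMP, tested as an interaction, called 0 of 46 members by edgeR and 0 by DESeq2, with 5 at an unadjusted p under 0.05. All genes tested were called higher in 7.00% and lower in 5.52%. With animal as a block 2 members were called lower, and the same number without WT GMP 3, while leaving out WT LSK 1 gave 1 higher. Markers of other cells moved with genotype: summed erythroid markers were 462 to 663 CPM in WT LSK and 2.67 to 6.93 CPM in Flt3 4w LSK (4 of 5 measured markers detected there, Alas2 at 0). Also in LSK at 4 weeks, 4 of 4 macrophage markers tested were lower in Flt3 (sums of 10.9 to 28.7 CPM against 171 to 1155 CPM in WT), and 4 of 5 LSK markers (242 to 452 against 404 to 590 CPM). In GMP at 4 weeks all markers tested of GMP (5 of 5, 25872 to 31252.5 against 45197 to 55019 CPM), neutrophils (3 of 3, 1.20 to 19.2 against 312 to 710 CPM, Camp at 0 in Flt3), macrophages (3 of 3, 6.02 to 14.0 against 51.3 to 92.6 CPM) and erythroid cells (4 of 4, 1.75 to 9.46 against 120 to 180 CPM, Car1 and Alas2 at 0 in Flt3) were lower. The part of these differences in the histone results was not tested. In bulk libraries, fewer cells of a type and less RNA per cell cannot be told apart.

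Flt3 libraries at 2 weeks held higher histone values than those of later weeks. A fit of a straight change per week called 1 of 41 members lower in LSK and 9 of 44 in GMP, with 0 higher in either. All genes were called lower in 1.98% and higher in 0.722% in LSK (2.70% in all), and in 8.91% and 3.34% in GMP. In LSK the member was Hist1h1c (-0.31 ± 0.04 per week on the log2 scale), and in GMP the steepest were Hist1h2ac (-0.41 ± 0.07), Hist1h1c (-0.40 ± 0.10), Hist2h2be (-0.28 ± 0.07), Hist1h2bp (-0.25 ± 0.08) and Hist1h2bc (-0.22 ± 0.05). Without the 2-week libraries 0 members were called in either population. Leaving out Flt3 2w GMP 1, 2 or 3 left 2, 4 or 3 called in GMP, and leaving out any of Flt3 4w LSK 1, 2 or 3, 6w LSK 2 or 8w LSK 1 gave 2 to 7 in LSK.

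On these fewer libraries the slope of Hist1h1c in LSK was -0.18 per week and that of Hist2h2be in GMP -0.21, while those of the other named members in GMP lay between -0.0528 and 0.0780. The later weeks were also compared with week 2, a comparison added after seeing the data. It called 19 of 41 members lower in LSK and 16 of 44 in GMP and 0 higher in either, where 10.8% and 14.7% of all genes were lower and 5.94% and 9.78% higher. All 41 and all 44 members tested had a log2 fold change below 0. The member medians were -0.95 in LSK and -0.80 in GMP, against 0.02 and 0.01 for all genes.

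Every class held lowered members. In LSK these were 2 of 5 H1, 5 of 11 H2A, 7 of 11 H2B, 2 of 5 H3 and 3 of 9 H4 genes. In GMP they were 2 of 5 H1, 3 of 11 H2A, 6 of 12 H2B, 1 of 7 H3 and 4 of 9 H4 genes. Called in both populations were 9: Hist1h1c, Hist1h1d, Hist1h2ac, Hist2h2ac, Hist1h2be, Hist1h2bp, Hist2h2bb, Hist2h2be and Hist1h4h, or 47.4% of the LSK calls and 56.2% of the GMP calls. By sample code the LSK and GMP libraries come from the same animals, so the populations are not independent. The overlap over all genes was not computed.

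Among linker genes, Hist1h1c was the most changed. In GMP it measured 160, 120 and 190 CPM at 2 weeks, 43.7, 39.7 and 28.4 at 4 weeks, 31.2, 64.4 and 47.7 at 6 weeks, and 53.4 and 32.7 at 8 weeks. In LSK it measured 119, 75.9 and 67.7 CPM at 2 weeks, 48.8, 49.6 and 51.2 at 4 weeks, 34.7, 43.5 and 32.1 at 6 weeks, and 23.8, 35.6 and 35.9 at 8 weeks. No later library of either population reached the lowest 2-week library, and WT libraries at 4 weeks (33.3 to 58.6 CPM) lay with the later ones.

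The log2 fold change of Hist1h1c was -2.27 ± 0.19 in GMP (edgeR adjusted p = 5.97e-11) and -1.48 ± 0.19 in LSK (4.17e-06). Hist1h1d, another somatic linker gene, fell by 1.10 ± 0.24 on the log2 scale in GMP (edgeR adjusted p = 0.000698), from 43.1, 43.2 and 53.7 CPM to between 14.7 and 35.4. Hist1h1b, whose promoter is printed beside that of Hist1h1c, gave no call: GMP libraries measured 98.3, 94.5 and 89.8 CPM at 2 weeks and 42.6 to 157.7 CPM later (-0.09 ± 0.23, edgeR adjusted p = 0.828), and in LSK the change was -0.38 ± 0.18 (0.163).

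Among H2A genes, Hist1h2ac stood out in the same way. In GMP it measured 71.8, 52.9 and 87.9 CPM at 2 weeks and 15.3 to 29.4 CPM in the 8 later libraries (-2.13 ± 0.22, edgeR adjusted p = 7.64e-09). In LSK it measured 42.3, 25.3 and 32.0 CPM at 2 weeks and 3.26 to 20.7 CPM in the 9 later ones (-1.54 ± 0.31, edgeR adjusted p = 0.000721). Neither population's groups overlapped. Hist1h2ae, the highest H2A gene of this table, was lower in LSK (-1.03 ± 0.22, edgeR adjusted p = 0.00168) and not called in GMP (-0.41 ± 0.19, 0.123).

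The H2B genes held the most calls. Hist1h2bc, the neighbour of Hist1h2ac on the opposite strand, measured 98.3, 106 and 104 CPM in GMP at 2 weeks and 34.7 to 85.6 CPM later, without overlap (-1.19 ± 0.19, edgeR adjusted p = 1.68e-05). In LSK its change was -0.14 ± 0.19 (edgeR adjusted p = 0.675). Whether these changes differ between the populations was not tested.

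Other H2B genes were lower in both populations. Hist1h2bp measured 20.8 to 23.6 CPM in GMP at 2 weeks and 6.99 to 18.3 CPM later (-1.52 ± 0.33, edgeR adjusted p = 0.000622), and in LSK its change was -1.44 ± 0.38 (0.00951) with overlapping groups. Hist2h2be measured 32.7, 36.1 and 22.9 CPM in LSK at 2 weeks and 8.62 to 28.5 CPM later (-1.35 ± 0.30, edgeR adjusted p = 0.00219). Only Flt3 8w LSK 2, at 28.5 CPM, exceeded the lowest 2-week value. Hist1h2be, which shares exon sequence with Hist1h1e, fell by 1.61 ± 0.47 on the log2 scale in LSK (edgeR adjusted p = 0.0177), with overlapping groups.

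Few H3 genes were tested, with 2 of 5 called in LSK and 1 of 7 in GMP, at low levels. Hist1h3e measured 10.9 to 14.5 CPM in LSK at 2 weeks and 1.34 to 10.3 CPM later (-1.62 ± 0.47, edgeR adjusted p = 0.0186), and Hist1h3g in GMP went from a mean of 13.4 to 5.01 CPM with overlapping groups (-1.71 ± 0.44, edgeR adjusted p = 0.00406). Among H4 genes, Hist1h4h measured 39.7, 41.6 and 51.9 CPM in GMP at 2 weeks and 3.15 to 31.2 CPM later (-1.69 ± 0.28, edgeR adjusted p = 2.07e-05), without overlap. Hist1h4d, the highest H4 gene, measured 122, 142 and 180 CPM in LSK at 2 weeks and 68.0 to 123 CPM later (-0.95 ± 0.18, edgeR adjusted p = 0.00073). In GMP its 2-week libraries spread from 65.9 to 133 CPM and its change was -0.36 ± 0.29 (0.427).

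**Figure D3:**
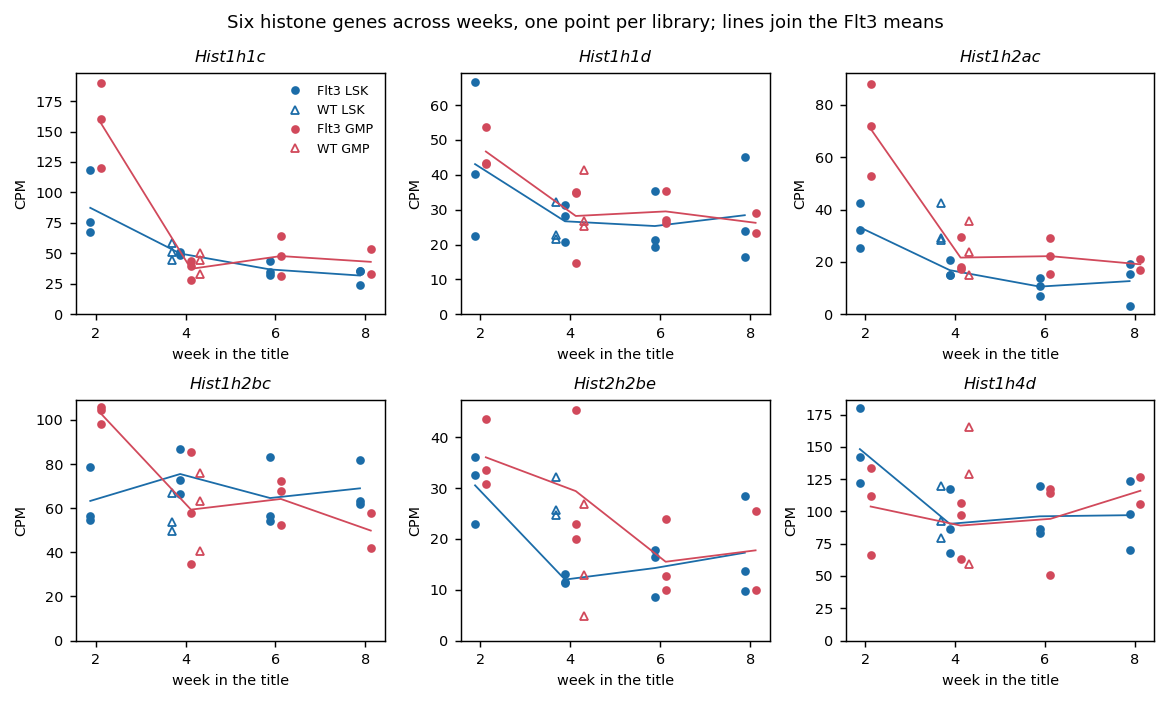
CPM of Hist1h1c, Hist1h1d, Hist1h2ac, Hist1h2bc, Hist2h2be and Hist1h4d (panels, linear axes) in single LSK and GMP libraries of Flt3 mice by week, with triangles for WT libraries at 4 weeks. For Hist1h1c and Hist1h2ac every library from 4 to 8 weeks lies below the lowest 2-week library of its population.

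Genes of DNA replication ran opposite to the histone genes. From week 2 to the later weeks, 15 of 22 rose in GMP and 10 of 22 in LSK, with 0 lower in either, and medians of 0.56 and 0.32. Their summed level was 2335 to 3313 CPM in GMP at 2 weeks and 5042 to 5805 CPM later. Mcm2, a subunit of the replicative helicase, rose by 0.82 ± 0.12 in GMP (edgeR adjusted p = 5.87e-06) and by 0.64 ± 0.12 in LSK (0.000454).

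Genes of histone mRNA processing hardly moved: 1 of 12 was higher in GMP, the exonuclease gene Eri1 (0.45), and 0 of 12 were called in LSK. Of histone genes outside the clusters, 3 of 11 were lower and 2 higher in GMP, and 4 lower and 1 higher in LSK. H1f0, the linker histone of resting and differentiated cells, was lower in both, by -2.21 ± 0.22 in GMP (edgeR adjusted p = 2.67e-09) and -1.91 ± 0.21 in LSK (3.25e-07). H2afy2, a macroH2A gene, was higher in both, by 1.67 and 0.92.

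Markers of other cells moved with the week. All 4 basophil and mast cell markers were lower in GMP after week 2, their sum being 55520 to 69377 CPM at 2 weeks and 266 to 935 CPM later. In LSK the same sum was 419 to 2378 CPM at 2 weeks and 102 to 187 CPM later, B and plasma cell markers summed to 5527 to 15145 CPM and later to 74.9 to 114 CPM, and erythroid markers to 88.7 to 133 CPM and later to 2.67 to 35.9 CPM. In GMP erythroid markers summed to 157 to 235 CPM at 2 weeks and 1.75 to 19.9 CPM later. Pax5 and Alas2 were at 0 in the 2-week LSK libraries, as was Alas2 in the 2-week GMP libraries. The part of these cells in the histone values was not tested.

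Npm1 Flt3 LSK and GMP had far higher histone levels than Dnmt3a Flt3 LSK and GMP. Genotype and sample-code series coincide here and cannot be told apart. Vehicle Lin- HSPCs, also Npm1 Flt3, summed to 219 to 264 CPM over all members. Npm1 Flt3 LSK measured 380 to 597 CPM, Npm1 Flt3 GMP 532 to 636 CPM, and Dnmt3a Flt3 LSK and GMP 115 to 139 CPM. In LSK 17 of 57 members were higher in Npm1 Flt3 and 0 lower, where 7.80% of all genes were higher and 3.76% lower. In GMP 24 of 60 were higher and 0 lower, where 12.5% and 8.22% of all genes were. The log2 fold change was above 0 for 57 of 57 members in LSK and 58 of 60 in GMP, with member medians of 2.56 and 2.43 against -0.004 and 0.06 for all genes. The comparison rests on 4 libraries against 2.

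**Figure D4:**
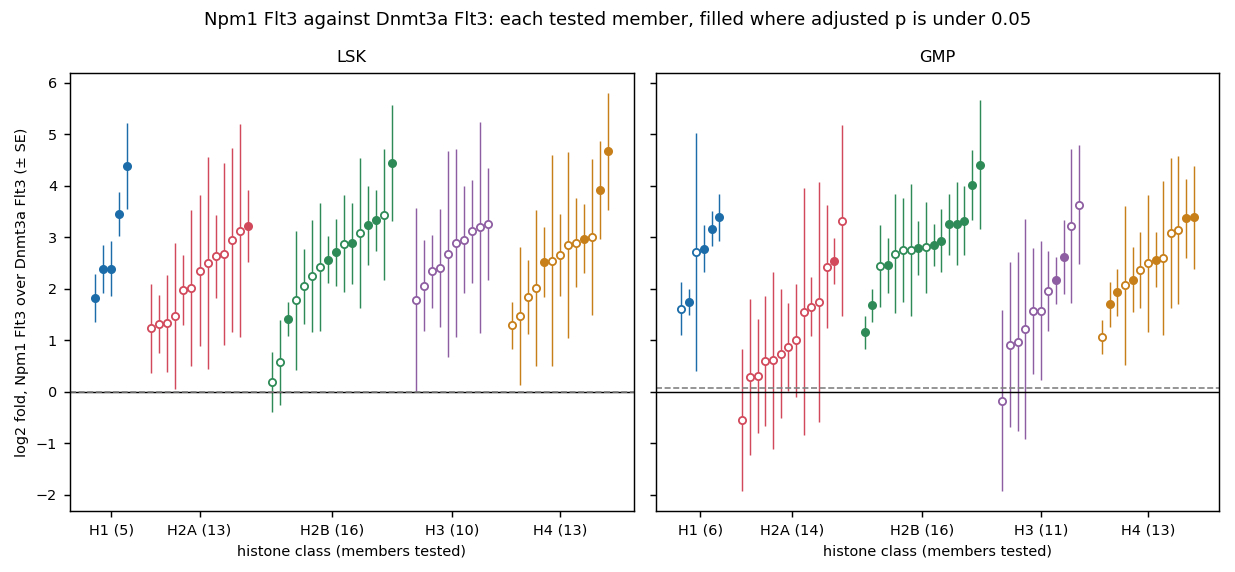
Log2 fold change of Npm1 Flt3 over Dnmt3a Flt3 with its standard error for each tested member, by class, in LSK and in GMP; filled points passed the test and the dashed line is the median of all genes. In LSK all 57 members lie above 0, with a median of 2.56.

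By class, the higher members in LSK were 5 of 5 H1, 1 of 13 H2A, 7 of 16 H2B, 0 of 10 H3 and 4 of 13 H4 genes. Class medians were close to each other (2.39, 2.35, 2.63, 2.78 and 2.65 in this order). In GMP the higher members were 4 of 6 H1, 1 of 14 H2A, 11 of 16 H2B, 2 of 11 H3 and 6 of 13 H4 genes, with medians of 2.74, 0.94, 2.80, 1.57 and 2.50. The populations shared 16 called members, 94.1% of the LSK calls and 66.7% of the GMP calls. Sample codes tie several of these LSK and GMP libraries to the same animals, so the populations are not independent. The overlap over all genes was not computed.

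Among linker genes, Hist1h1c measured 78.8, 66.0, 114 and 49.1 CPM in Npm1 Flt3 LSK and 7.22 and 7.35 CPM in Dnmt3a Flt3 LSK (3.45 ± 0.43, edgeR adjusted p = 0.00178). In GMP it measured 105, 188, 163 and 104 CPM against 14.1 and 16.5 CPM (3.16 ± 0.34, edgeR adjusted p = 0.00144). The conflicting libraries, Dnmt3a Flt3 LSK 1 at 12.6 CPM and GMP 2 at 9.09 CPM, also lay far below every Npm1 Flt3 library.

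Hist1h1a, another somatic linker gene, measured 9.63, 6.73, 9.49 and 22.2 CPM against 0.872 and 0.351 CPM in LSK (4.39 ± 0.83, edgeR adjusted p = 0.00994) and 10.6, 7.02, 9.38 and 11.6 CPM against 0.866 and 0.929 CPM in GMP (3.38 ± 0.46, 0.00323). Hist1h1b was called in LSK alone, at 29.4, 24.1, 40.8 and 51.1 CPM against 9.15 and 12.6 CPM (1.83 ± 0.47, edgeR adjusted p = 0.0326). None of these groups overlapped.

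Hist1h2ac was the single H2A gene called in either population. It measured 40.8, 16.4, 11.0 and 7.01 CPM against 1.65 and 2.24 CPM in LSK (3.22 ± 0.70, edgeR adjusted p = 0.0174). In GMP it measured 26.6, 28.3, 42.9 and 26.0 CPM against 3.10 and 7.22 CPM (2.53 ± 0.45, edgeR adjusted p = 0.00852). Both populations of Npm1 Flt3 lay above those of Dnmt3a Flt3, and the first LSK library stood well above the other 3.

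Of the H2B genes, Hist1h2bc had a smaller difference from a higher base. It measured 76.1, 54.8, 39.7 and 68.8 CPM against 21.4 and 24.5 CPM in LSK (1.41 ± 0.33, edgeR adjusted p = 0.0236) and 67.9, 44.9, 70.0 and 46.8 CPM against 22.0 and 13.1 CPM in GMP (1.68 ± 0.32, 0.0111). Hist1h2bp in LSK measured 4.84, 2.36, 5.71 and 4.49 CPM against 0.0467 and 0.366 CPM (4.45 ± 1.13, edgeR adjusted p = 0.0315). On chromosome 11, Hist3h2ba in GMP measured 6.55, 4.20, 4.12 and 3.31 CPM against 0.271 and 0.273 CPM (4.02 ± 0.68, edgeR adjusted p = 0.00665).

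The pseudogene Hist3h2bb-ps had the largest GMP value, at 2.81, 1.47, 1.94 and 0.677 CPM against 0.0259 and 0.127 CPM (4.41 ± 1.25, edgeR adjusted p = 0.0429), from 706 counts in Npm1 Flt3 and 16 in Dnmt3a Flt3. Its call was lost without any of Npm1 Flt3 GMP 1, 2 or 3 or Dnmt3a Flt3 GMP 1 or 3. H3 calls were confined to GMP among the comparisons of these genotypes: Hist1h3d at 19.2, 8.65, 20.8 and 19.1 CPM against 2.99 and 4.34 CPM (2.16 ± 0.46, edgeR adjusted p = 0.0159), and Hist1h3f (2.62 ± 0.72, 0.0396). For no H3 gene was the difference between LSK and GMP itself tested.

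The H4 genes named by size lie outside the large chromosome 13 cluster. Hist4h4 measured 2.30, 2.18, 4.03 and 10.2 CPM against 0.156 and 0.244 CPM in LSK (4.66 ± 1.13, edgeR adjusted p = 0.0266) and 3.14, 1.98, 3.18 and 4.86 CPM against 0.0776 and 0.519 CPM in GMP (3.39 ± 1.00, 0.0486). Hist2h4 measured 3.41, 4.84, 4.34 and 3.36 CPM against 0.405 and 0.137 CPM in LSK (3.91 ± 0.95, edgeR adjusted p = 0.0261), and its GMP difference was 3.36 ± 0.76 (0.0198). Their stem-loop cores, printed above, are not identical: Hist4h4 has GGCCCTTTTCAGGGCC and Hist2h4 has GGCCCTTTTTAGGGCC, which Hist1h4i shares. On the same log2 scale, Hist1h4d, with the highest mean of the H4 genes in the first table, differed by 2.52 in LSK and 1.93 in GMP, and both passed the test.

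Leaving out Dnmt3a Flt3 LSK 2 or 3 left 3 or 1 members called, leaving out Npm1 Flt3 LSK 1 left 11, and leaving out Dnmt3a Flt3 GMP 1 or 3 left 5 or 8. Where a Dnmt3a Flt3 library is left out, the lone one remaining is assumed to vary like the Npm1 Flt3 libraries. Single calls also fell with Npm1 Flt3 libraries: Hist4h4 in GMP without any 1 of the 6 libraries, Hist1h2bp in LSK without Npm1 Flt3 LSK 1 or 3 or either Dnmt3a Flt3 library, and Hist2h4 in LSK without Npm1 Flt3 LSK 2 or either Dnmt3a Flt3 library. Hist1h1c in LSK and Hist1h1a in GMP kept their calls whichever library was left out. With the conflicting libraries kept by their titles the counts were 27 in LSK and 35 in GMP.

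DNA replication genes again stood the other way, with 2 of 22 higher and 5 lower in LSK and 1 higher and 9 lower in GMP. Their summed level was 5110 to 7037 CPM in Npm1 Flt3 LSK and 9472 and 9478 CPM in Dnmt3a Flt3 LSK. Of the histone mRNA processing genes, 1 of 15 was higher and 1 lower in LSK, and 2 higher and 1 lower in GMP. Eri1 was higher in both (1.70 and 1.56), Cstf2, which acts in polyadenylation, was lower in both (-0.97 and -1.09), and Lsm11, a component of the histone-specific U7 particle, was higher in GMP (2.29). Of histone genes outside the clusters 2 of 11 were higher in each population, among them the macroH2A gene H2afy (2.04 and 0.85).

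Neutrophil markers moved with these comparisons, 4 of 5 tested being higher in Npm1 Flt3 LSK and 5 of 5 in GMP. Their sum was 362 to 1439 CPM in Npm1 Flt3 GMP and 11.5 to 13.5 CPM in Dnmt3a Flt3 GMP, where Camp was at 0, and 211 to 573 CPM against 70.8 to 85.0 CPM in LSK. All 4 basophil and mast cell markers were lower in Npm1 Flt3 GMP, their sum being 80.1 to 173 CPM against 1417 to 1661 CPM. In LSK 3 of 6 B and plasma cell markers were also higher in Npm1 Flt3, with sums of 137 to 386 CPM against 59.9 to 83.0 CPM. The mitochondrial share of counts was 0.697 to 1.24% in Npm1 Flt3 GMP and 0.256 to 0.336% in Dnmt3a Flt3 GMP, and 0.445 to 1.39% and 0.381 to 0.423% in LSK. The part of these in the histone result was not tested.

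Histone genes as a set lay below the median of all genes after tamoxifen under each scaling tried. The sign of single members moved with the scaling, which shifts all genes together. With TMM scaling, 16 of 46 members were lower after tamoxifen and 0 higher, where 21.3% of all genes were lower and 10.1% higher. TMM placed the median of all genes at 0.56 on the log2 scale, and the member median of -1.05 was 1.61 below it. With scaling by library size alone, a choice added after seeing the data, the medians were 1.64 for all genes and 0.12 for the members, 1.51 apart, and 6 members were higher and 4 lower. No member was called lower by TMM and higher by library size, or the reverse. The share of higher calls among all genes called was 32.1% by TMM and 81.5% by library size.

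**Figure D5:**
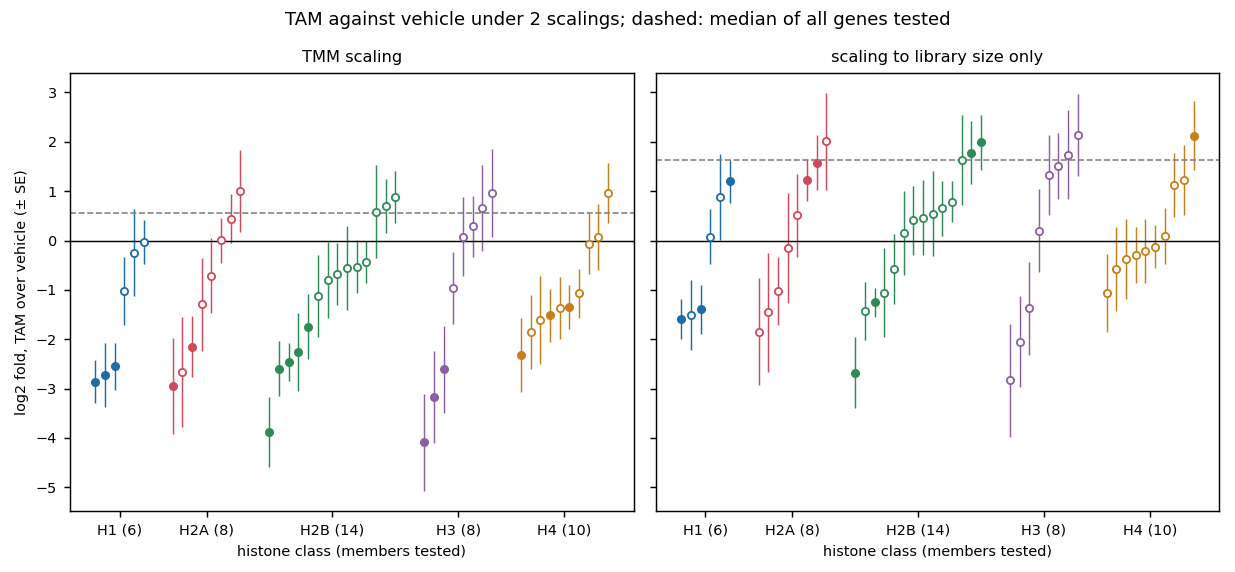
Log2 fold change of tamoxifen over vehicle with its standard error for each tested member, by class, under TMM and under library size alone; filled points passed the test and the dashed line marks the median of all genes, 0.56 and 1.64. The set sits higher under library size, with member medians of -1.05 and 0.12.

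Lower under both TMM and library size were 4 members. Hist1h1b measured 7.11, 4.99 and 7.06 CPM after tamoxifen and 17.0, 20.7 and 20.0 CPM after vehicle (-2.86 ± 0.43 by TMM, edgeR adjusted p = 7.67e-06, and -1.59 ± 0.41 by library size, 0.0160). Hist1h1e, a linker gene whose model overlaps Hist1h2be on the same strand, measured 3.79, 11.2 and 4.77 CPM against 18.1, 17.2 and 16.8 CPM (-2.55 ± 0.48, edgeR adjusted p = 0.000111, and -1.40 ± 0.50, 0.0445). In both genes all treated libraries lay below all vehicle libraries.

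The other two were H2B genes. Hist1h2bc measured 26.6, 20.9 and 13.6 CPM against 57.6, 47.8 and 40.3 CPM (-2.47 ± 0.39 by TMM, edgeR adjusted p = 1.3e-05, and -1.26 ± 0.29 by library size, 0.0105). Hist1h2bk, whose model ends near its stem-loop and shares 74.2% of its windows with other members, measured 0.465, 0.528 and 0.441 CPM against 2.58, 2.68 and 3.99 CPM (-3.87 ± 0.71, edgeR adjusted p = 8.33e-05, and -2.68 ± 0.72, 0.0197). Neither gene's groups overlapped.

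Several of the lowest members by TMM lay under 2 CPM in every library. Hist1h3c measured 0.399, 0 and 0.0883 CPM against 1.26, 0.967 and 1.08 CPM (-4.09 ± 0.98, edgeR adjusted p = 0.00169 by TMM and 0.0611 by library size). Hist1h3a measured 0.0664, 0.336 and 0.177 CPM against 1.12, 0.802 and 0.563 CPM (-3.18 ± 0.93, edgeR adjusted p = 0.00935 by TMM and 0.0807 by library size). Hist1h2ab measured 0, 0.528 and 0.132 CPM against 0.811, 0.754 and 0.905 CPM (-2.95 ± 0.98, edgeR adjusted p = 0.0217 by TMM and 0.159 by library size). Treated libraries lay below vehicle libraries in all of these.

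The 6 members called higher by library size alone had TMM values between -0.03 and 0.95 and were not called there. Hist1h1d measured 17.1, 10.7 and 21.9 CPM against 7.37, 6.50 and 7.81 CPM (1.20 ± 0.44 by library size, edgeR adjusted p = 0.0482, and -0.03 by TMM, so that its sign turned). Hist3h2a measured 16.1, 21.1 and 12.8 CPM against 6.85, 7.97 and 6.44 CPM (1.23, edgeR adjusted p = 0.0398). The rest were Hist1h2ac (1.58), Hist1h2be (1.99), Hist2h2bb (1.78) and Hist2h4 (2.13), whose treated libraries measured 10.4, 13.9 and 2.69 CPM against 2.12, 1.93 and 2.13 CPM. Against the all-gene median of 1.64 by library size, Hist1h2be, Hist2h2bb and Hist2h4 lay above it and Hist1h1d, Hist1h2ac and Hist3h2a below it.

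By class under TMM, 3 of 6 H1 genes were lower (median -1.79), 2 of 8 H2A (-1.005), 5 of 14 H2B (-0.74), 3 of 8 H3 (-0.44) and 3 of 10 H4 (-1.36). By model end, 9 of the 15 tested members ending near the stem-loop were lower (median -2.32) and 4 of the 21 running past it (median -0.53). Of the 5 ending at the stop codon, the shortest models, 1 was lower and the median was above 0, at 0.59. Of the 5 without a stem-loop in the model 2 were lower (median -1.13), so the calls did not follow model length. Leaving out TAM 1 left 6 members lower and leaving out TAM 3 left 7.

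The other gene lists moved in the same direction under TMM. All 22 DNA replication genes were lower after tamoxifen (median -2.76), with a summed level of 1667 to 3113 CPM against 7626 to 7887 CPM, as were all 12 mitosis genes. Of histone mRNA processing genes 12 of 15 were lower, including Slbp, which binds the stem-loop (-2.08 ± 0.38, edgeR adjusted p = 8.27e-05), the cap-binding gene Ncbp1 (-2.90) and Npat (-1.95). Of histone chaperones 13 of 16 were lower, and of histone genes outside the clusters 9 of 10. With library size as the scale these values are higher by the shift of all genes given above.

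Marker levels differed widely between the treated and vehicle libraries. GMP markers summed to 237 to 711 CPM after tamoxifen and 5143 to 6236 CPM after vehicle. Neutrophil markers summed to 1639 to 2154 CPM against 45.6 to 89.0, macrophage markers to 310 to 647 CPM against 20.1 to 36.0, erythroid markers to 524 to 693 CPM against 1.65 to 8.45, T cell markers to 189 to 350 CPM against 2.37 to 29.4, and LSK markers to 161 to 577 CPM against 36.7 to 59.5. By TMM, 5 of 5 GMP markers were lower, and 5 of 5 neutrophil, 4 of 4 macrophage and 5 of 5 erythroid markers were higher. Only 1 of 4 T cell markers and 1 of 5 LSK markers were called, both higher. No marker of these lists was at 0 in either group. Of B and plasma cell markers 3 of 6 were higher and 1 lower, and of basophil and mast cell markers 1 of 4 was lower. In bulk libraries, the number of cells of a type and the RNA per cell cannot be told apart. The part of these marker differences in the histone values was not tested.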

How the data were processed

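STAR, featureCounts and the mm10 build are named in the submitters' processing notes. Versions, strand and multi-mapping settings are not given in the sources used here, so members with near-identical copies are uncertain: 32 members share over 50% of their 50-base windows with another member, and 26 overlap another gene's exons. The deposited values are raw counts. CPM is counts divided by the library's total. Each comparison used edgeR 4.0.16 (R 4.3.3) on all genes passing filterByExpr, with TMM scaling, the robust quasi-likelihood F test and Benjamini-Hochberg adjustment over all genes, called at 0.05. The fits were tested on simulated data. DESeq2 1.42.0, other scalings, filters, replicate blocks and left-out libraries were alternatives. Named members were the 3 highest per class and table, up to 5 called higher and 5 lower per comparison, 3 testis members and members detected in 1 table or neither; other members named in a list or as examples were chosen after their values were seen. Members and lists were chosen with earlier results of these data known. No replicate pair was a copy (52 pairs, lowest chi-square per degree of freedom 2.26).

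Deviations of tamoxifen and vehicle libraries with the same title number correlated at 0.111 to 0.304 (3 pairs). Each of these libraries has its own sample code, and no other matching was compared, so pairing is not shown. Sample codes tie LSK and GMP libraries to 1 animal (14 pairs of WT and Flt3, -0.0552 to 0.209, and 3 of Npm1 Flt3, 0.0672 to 0.314). Other shared title numbers gave correlations of at most 0.0701.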

Additional observations from a re-analysis of the deposited data

Results flagged for a closer look

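In 4 of 80 sets of values tested, 1 library lay far from the others of its group by Dixon's criterion, which chance gives in about 1 of 20. Among Npm1 Flt3 GMP libraries, Hist1h2ac measured 42.9 CPM in replicate 3 and 26.0 to 28.3 CPM in the others, and Hist1h3d measured 8.65 CPM in replicate 2 and 19.1 to 20.8 CPM in the others. Among Npm1 Flt3 LSK libraries, replicate 1 was high for Hist1h2ai, at 1.79 CPM against 0.392 to 0.581 CPM, and for Hist1h3i, at 1.84 CPM against 0.468 to 0.682 CPM. That replicate is also the library without which 11 members were called in the LSK comparison with Dnmt3a Flt3.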

How the results depend on the processing

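Of 37 named member results, 6 kept their direction and their side of the threshold under all alternatives run, and 31 lost the call under at least 1. Reversed were Hist1h1c (0.0549 per week) and Hist1h2bp (0.0780 per week) in Flt3 GMP without the 2-week libraries. Counts of members called changed as follows. Without a filter, WT LSK against WT GMP gave 1 higher, Flt3 GMP against WT 0 higher, Flt3 LSK against WT at 4 weeks 1 lower and Flt3 LSK per week 5 lower; with a filter of 5 CPM, WT LSK gave 1 higher, Flt3 LSK at 4 weeks 1 lower, and tamoxifen 1 higher and 4 lower. DESeq2 gave 7 lower per week in Flt3 LSK, 36 higher in Npm1 over Dnmt3a LSK and 2 lower in Npm1 LSK against GMP. Without the 2-week libraries, Flt3 GMP against WT gave 0 higher, Flt3 LSK against WT 2 lower, and both weekly fits and Flt3 LSK against GMP 0 lower; without the 8-week libraries the LSK weekly fit gave 4. Later weeks against week 2 gave 19 and 16 lower. Npm1 LSK against GMP gave 0 lower within Npm1 Flt3 libraries alone. Conflicting libraries kept by title gave 27 higher in Npm1 over Dnmt3a LSK. Library size alone gave 6 higher and 4 lower for tamoxifen. The cause of these changes was not tested.

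With a replicate block, counts changed as follows: animal as a block gave 2 lower for the interaction and 0 for Npm1 LSK against GMP, and title numbers gave 1 lower in Flt3 LSK at 4 weeks, 4 lower per week in Flt3 GMP and 10 higher in Npm1 over Dnmt3a GMP. The block gave 20 lower for tamoxifen and 24 higher in Npm1 over Dnmt3a LSK. In the other comparisons it moved no count of members by over 1.5 times.

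Leaving out 1 library gave these ranges of members called: WT LSK against GMP 2 to 6 lower, Flt3 GMP against WT 0 to 1 higher, Flt3 LSK against WT 0 to 1 higher and 0 to 1 lower, Flt3 GMP at 4 weeks 1 to 3 lower, Flt3 LSK at 4 weeks 0 to 1 lower, per week 1 to 7 lower in LSK and 2 to 10 in GMP, Flt3 LSK against GMP 2 to 6 lower, the interaction 0 to 1 higher and 0 to 2 lower, Npm1 over Dnmt3a 1 to 21 higher in LSK and 5 to 21 in GMP, Npm1 LSK against GMP 0 to 1 lower, and tamoxifen 6 to 16 lower. TMM-scaled summed CPM was 172.03 in Dnmt3a Flt3 GMP, 1874 and 1624 in Flt3 2w GMP and LSK, 860 in Flt3 4w LSK, 1190 in Flt3 8w GMP, 763 in Npm1 Flt3 GMP, and 132 and 206 after tamoxifen and vehicle. At the depth of the first table, members near or below the CPM of 3 counts cannot be compared between single libraries.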
